A study of Homo sapiens with 18 samples.

Results

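The genes described here carry retinoic acid through a cell: the binding proteins CRABP1 and CRABP2, the retinaldehyde dehydrogenase ALDH1A2, the retinaldehyde reductase DHRS3, the retinoic acid hydroxylases CYP26A1 and CYP26B1, the receptors RARA, RARB and RARG, and the corepressor NRIP1. They were chosen by name as a set of 10 among the 63677 gene identifiers of the tables, and every one of them is listed in all 18 libraries, CYP26A1 at 0 in 5 of them, CRABP1 at 0 in 3, and ALDH1A2 and DHRS3 at 0 in 1 each. The libraries hold polyadenylated RNA of bulk xenograft tumours, that is, tumours that human neuroblastoma cell lines formed in mice. Neuroblastoma is a childhood tumour of the sympathetic nervous lineage. The lines were SKNAS, LAN-1 and KELLY, each with 3 control libraries and 3 libraries of an arm named Hmx1, after a homeobox gene. The treatment field of every library reads None, so no retinoid was given as far as the labels say. A MYCN-amp genotype (amplification of the oncogene MYCN) is recorded only on 2 KELLY control libraries, and no genotype, strain, host age or vector is given for the others. Neither the direction of the Hmx1 manipulation, nor the use of a single clone, nor separate mice for the libraries of a group can be read from the labels. The p-values therefore measure only how these libraries vary, and part of that may be technical.

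Vitamin A (retinol) enters cells and is oxidised first to retinaldehyde and then, by the ALDH1A dehydrogenases, to retinoic acid. DHRS3 turns retinaldehyde back into retinol, CRABP proteins carry retinoic acid in the cytoplasm, and CYP26 enzymes hydroxylate it for removal. Retinoic acid binds the RAR receptors, which sit on DNA with an RXR partner at direct repeats of a short half-site, and RARB, CYP26A1 and DHRS3 are classic genes induced by it. Neuroblastoma cells in culture are known to differentiate under retinoic acid, and a retinoid is part of the treatment of high-risk disease.

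The best known retinoic acid response element is a DR5, a pair of half-sites in the same direction with 5 bases between them. The windows from 250 bases before to 50 bases after each annotated start were searched on both strands for the half-site AGGTCA, or its variant AGTTCA, or its variant GGGTCA, or its variant GGTTCA, followed by 5 bases of any kind and again any of the same 4 half-sites. All 10 genes matched the RefSeq promoter table (GRCh38.p14), with 21 windows between them, and a DR5 was found in 2 of these windows. They are shown because they hold the textbook elements of a receptor and of a breakdown enzyme whose levels follow below, and the DR5 is in capitals.
RARB, chr3:25428013-25428262, plus strand, DR5 53 to 37 bases before the start: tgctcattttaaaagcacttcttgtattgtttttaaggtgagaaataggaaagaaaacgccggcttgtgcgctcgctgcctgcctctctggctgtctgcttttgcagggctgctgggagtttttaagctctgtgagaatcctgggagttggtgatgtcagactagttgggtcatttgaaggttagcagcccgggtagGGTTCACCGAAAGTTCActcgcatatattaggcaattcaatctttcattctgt
CYP26A1, chr10:93073643-93073892, plus strand, DR5 90 to 74 bases before the start, read on the opposite strand: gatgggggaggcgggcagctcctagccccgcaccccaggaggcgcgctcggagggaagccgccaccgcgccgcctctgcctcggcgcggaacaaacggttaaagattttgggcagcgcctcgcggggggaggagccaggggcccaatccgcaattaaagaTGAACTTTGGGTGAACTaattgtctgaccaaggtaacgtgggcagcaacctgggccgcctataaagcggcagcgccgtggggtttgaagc
Of all 35116 windows of this length in the table, 31 held such a DR5 (0.0883%). Direct repeats of the same half-sites with 1 or 2 bases between them stood in 0.131% and 0.0399% of all windows and in 0 of the 21. A single half-site stood in 38.6% of all windows and in 10 of the 21. These matches describe letters in a window and no binding was measured.

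Values are TPM, a level per transcript length scaled to the same total in every library. The read number behind a value is unknown, because this unit holds no depth. Between 14420 and 16441 genes per library reached 1 TPM, and mitochondrial transcripts took 4.47% to 33.8% of a library, with the widest spread among the KELLY controls (12.9% to 33.8%). On the first principal component of each line the SKNAS arms lay apart, whereas LAN-1 Hmx1 replicate 1 (-17.95) lay among its controls (-21.4 to -7.89) and away from the other 2 Hmx1 libraries (28.1 and 38.35). KELLY control replicates 1 (57.4) and 2 (-49.4) lay at the opposite ends of that line. HMX1 itself had no TPM in the 3 SKNAS controls, and its 3 Hmx1 libraries in that line ranged from 0.193 to 1.24 TPM, a difference that did not pass (log2 0.64, SE 0.24, limma adjusted p = 0.127). It lay at 11.1 to 11.9 against 11.45 to 16.5 TPM in LAN-1 and at 3.92 to 7.72 against 4.68 to 6.40 TPM in KELLY, so its level does not separate the arms of those lines.

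**Figure D1:**
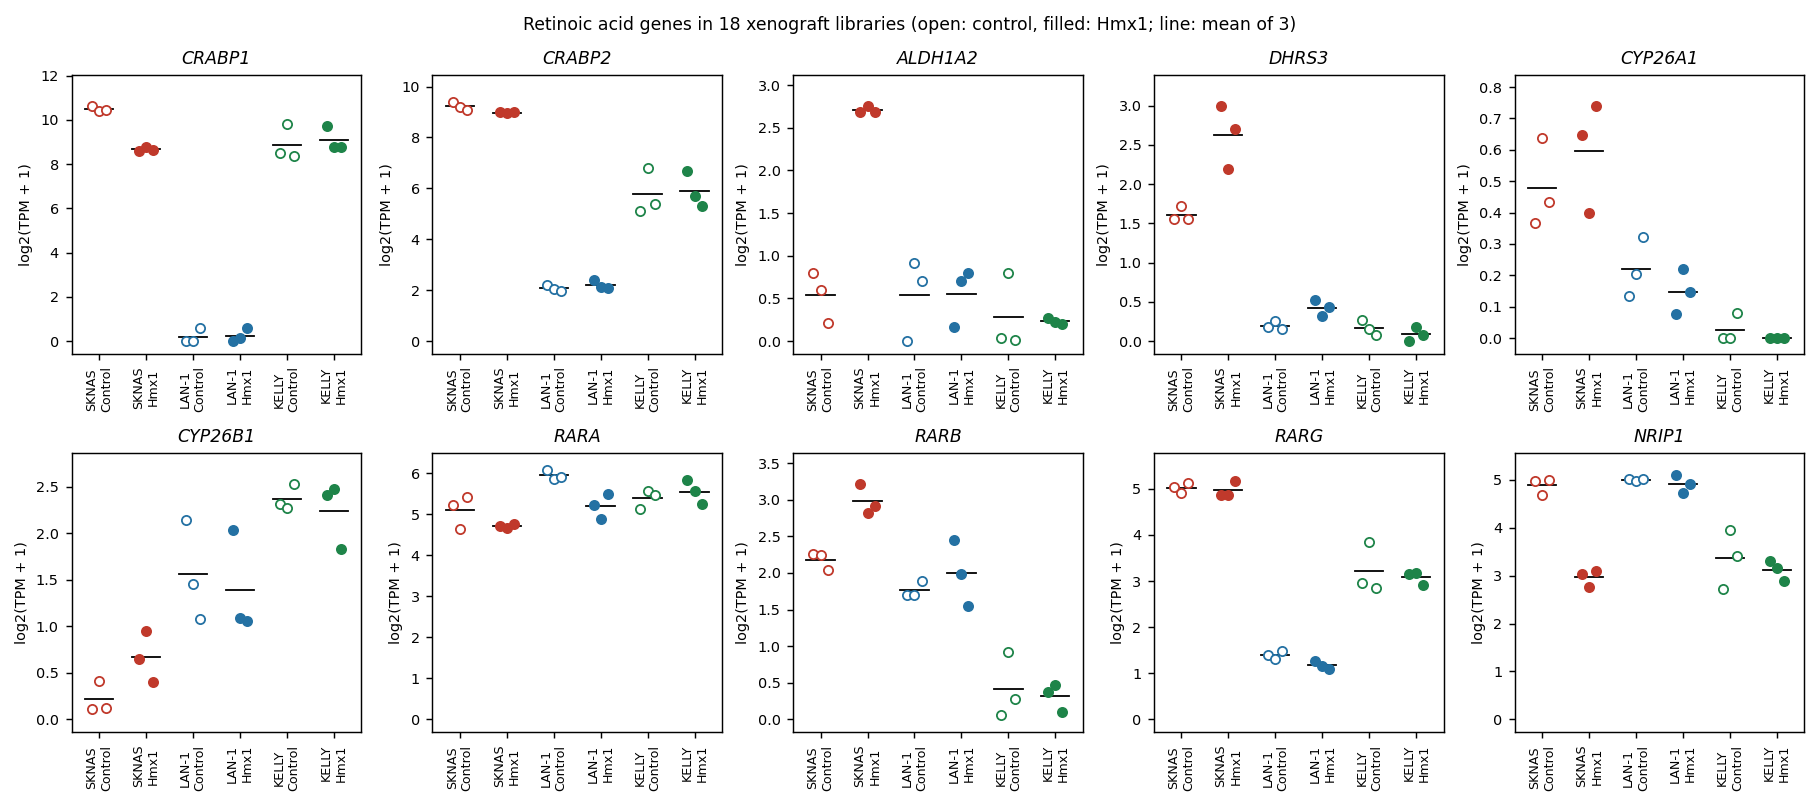
Level of each of the 10 genes in every library, as log2(TPM + 1) on the vertical axis, with the 6 groups on the horizontal axis. Open points are control libraries, filled points are Hmx1 libraries and lines are means of 3. CRABP1, NRIP1, ALDH1A2, DHRS3 and RARB show separate SKNAS arms, and CRABP1 lies near 0 in all 6 LAN-1 libraries.

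In SKNAS tumours the Hmx1 arm differed from control in 5 of the 9 genes that could be tested. CRABP1 and NRIP1 were lower by a factor of 3.53 and 4.16, while ALDH1A2, DHRS3 and RARB were higher. CRABP2, CYP26B1, RARA and RARG did not pass the test. In LAN-1 and KELLY none of the 9 passed. Tests are from limma on log2(TPM + 1) with p-values adjusted by the Benjamini-Hochberg method over 18650 genes, and a gene passed at an adjusted p under 0.05. Of all genes tested, 8.76% passed in SKNAS (4.96% higher and 3.80% lower), 0.450% in LAN-1 and 0.0912% in KELLY. The gene ALDH1A2 entered the test only through the 3 SKNAS Hmx1 libraries, where alone it reached the minimum of 1 TPM, so it had to differ, and DHRS3 reached the minimum in the 6 SKNAS libraries only. For the differences of these 2 genes that passed, the p-values below are therefore from a fit without a minimum, over 34941 genes. CYP26A1 reached it in no library and was not tested. In bulk tumours, fewer cells of a type and less RNA per cell cannot be told apart, and this holds for every difference below.

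**Figure D2:**
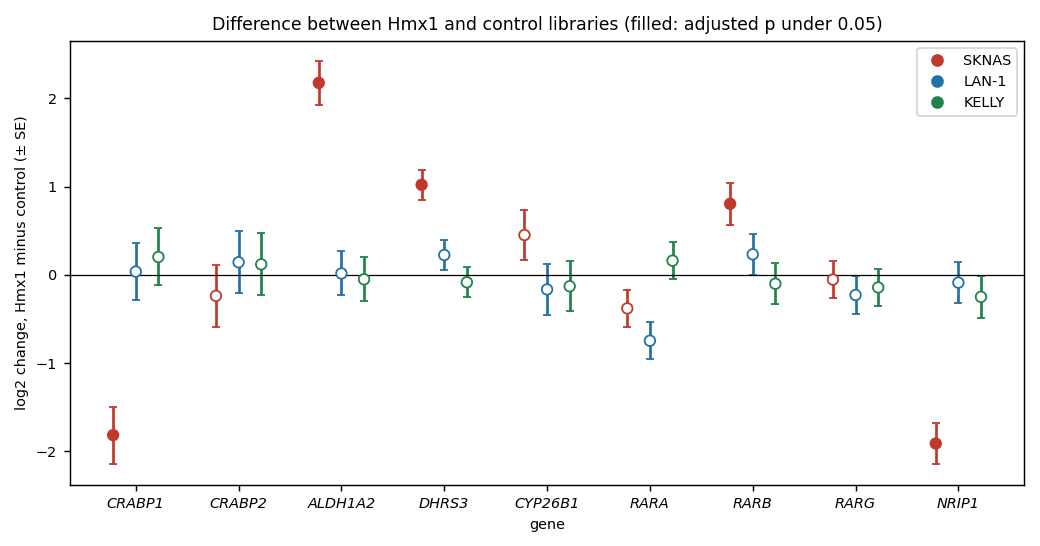
Difference between Hmx1 and control libraries on the log2(TPM + 1) scale (vertical axis, with SE) for the 9 genes tested (horizontal axis), in SKNAS (red), LAN-1 (blue) and KELLY (green). Filled points passed at an adjusted p under 0.05, and all 5 of them are SKNAS points.

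CRABP1 (ENSG00000166426, GRCh37 chromosome 15, 78632666 to 78640572, plus strand) encodes a small cytoplasmic protein that holds retinoic acid and is known as a marker of immature neural and mesenchymal cells. Its level in the SKNAS controls was 1582, 1365 and 1376 TPM, and in the SKNAS Hmx1 libraries 386, 435 and 403 TPM. The lowest control was thus more than 3 times the highest Hmx1 library, and the arms did not overlap. The difference was -1.82 (SE 0.32, limma adjusted p = 0.000999), the 84th largest fall among the 18650 genes. CRABP1 ranked between 57 and 65 among all genes of a SKNAS control library and between 221 and 270 in the Hmx1 libraries, so it remained an abundant transcript there. In KELLY the controls lay at 358, 900.5 and 325 TPM and the Hmx1 libraries at 837, 436 and 439 TPM. Each KELLY arm had 1 library far above its other 2, and the arms overlapped (log2 difference 0.20, SE 0.32, limma adjusted p = 1). In LAN-1 it was listed at 0, 0 and 0.530 TPM in the controls and at 0, 0.0915 and 0.513 TPM in the Hmx1 libraries. The SKNAS difference minus that of LAN-1, where CRABP1 lay near 0 in both arms, was -1.85 (SE 0.46, limma adjusted p = 0.0222). That call was lost under 8 of 23 alternatives, among them leaving out SKNAS control replicate 1, SKNAS Hmx1 replicate 1, LAN-1 control replicate 1 or 2, or LAN-1 Hmx1 replicate 3 (limma adjusted p from 0.00107 to 0.297 over the 23). The SKNAS difference minus that of KELLY, where both arms held over 300 TPM in each library, was -2.02 (SE 0.46, limma adjusted p = 0.0131), and that call was lost with a pseudocount of 0.1. The call in SKNAS was lost with a pseudocount of 0.1 in the fit to all libraries (limma adjusted p = 0.123) and kept with that pseudocount in a fit to the SKNAS libraries alone (limma adjusted p = 0.00104).

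CRABP2 (ENSG00000143320, chromosome 1, 156669398 to 156675608, minus strand) encodes the second carrier, which is known to hand retinoic acid to the receptors in the nucleus. In SKNAS it stood at 664, 591 and 533 TPM in the controls and at 505, 494 and 509.6 TPM in the Hmx1 libraries. The arms did not overlap, but the difference of -0.24 (SE 0.35, limma adjusted p = 0.843) did not pass. KELLY held 33.8, 111.2 and 40.7 TPM in the controls and 102, 50.5 and 38.3 TPM in the Hmx1 libraries. KELLY control replicate 2 and Hmx1 replicate 1 were the highest for both carriers. LAN-1 held between 2.87 and 4.31 TPM in its 6 libraries.

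The makeup of the CRABP transcripts differed between the SKNAS arms. CRABP1 made 70.8% ± 1.18 (SD, n = 3) of the summed CRABP TPM in the controls and 44.8% ± 1.86 (SD, n = 3) in the Hmx1 libraries. The sum itself was 2037 TPM in the controls and 911 TPM in the Hmx1 arm. In KELLY the share of CRABP1 was 89.8% in the controls and 90.2% in the Hmx1 arm, although the sum ranged from 366 to 1012 TPM between its control libraries. In LAN-1 the sum was 3.38 and 3.85 TPM, nearly all of it CRABP2.

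**Figure D3:**
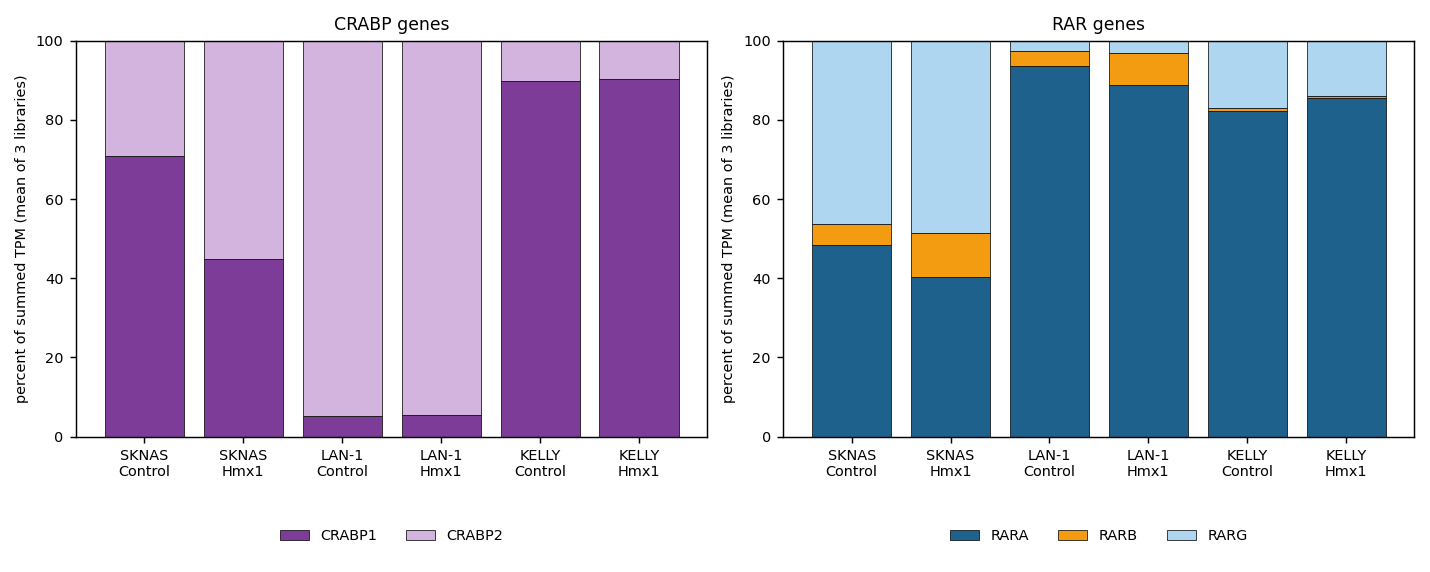
Mean share of each gene in the summed TPM of the CRABP genes (left) and of the RAR genes (right), in percent on the vertical axis, for the 6 groups on the horizontal axis. CRABP1 makes 70.8% of the CRABP sum in SKNAS controls and 44.8% in SKNAS Hmx1, and RARA makes most of the RAR sum in LAN-1 and KELLY.

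ALDH1A2 and DHRS3, a gene of synthesis and a gene of retinaldehyde reduction, were higher in the SKNAS Hmx1 arm, at low levels. ALDH1A3, given further below, held most of the retinaldehyde dehydrogenase TPM of its family in that line. ALDH1A2 (ENSG00000128918, chromosome 15, 58245622 to 58790065, minus strand), the main retinoic acid-making enzyme of the early embryo, stood at 0.745, 0.513 and 0.157 TPM in the SKNAS controls. The Hmx1 libraries held 5.45, 5.75 and 5.46 TPM, close to each other and all above the controls. The difference was 2.17 (without a minimum, limma adjusted p = 5.54e-05). In the other lines ALDH1A2 stayed under 1 TPM in all 12 libraries, from 0 to 0.882 TPM in LAN-1 and from 0.0108 to 0.741 TPM in KELLY. The SKNAS difference exceeded that of LAN-1 by 2.16 (without a minimum, limma adjusted p = 0.00257) and that of KELLY by 2.23 (limma adjusted p = 0.00212). Both calls between lines were lost with a pseudocount of 0.1 (limma adjusted p up to 0.192 and 0.174).

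The deposited coverage of ALDH1A2 was low for its TPM. In the SKNAS Hmx1 libraries mean coverage was 0.129 at a mean of 5.55 TPM, whereas DHRS3 had a mean coverage of 5.68 at 5.34 TPM. RARB also lay under the other genes, with a mean coverage of 0.859 at 6.97 TPM. RARA was low to a lesser degree, with a mean coverage of 5.81 at 25.2 TPM, beside 27.7 at 30.5 TPM for RARG. Coverage of ALDH1A2 nevertheless differed between the arms in the same direction as its TPM, from a mean of 0.00675 in the SKNAS controls. With coverage scaled to a common total in place of TPM, ALDH1A2 and RARB did not reach the minimum and gave no value. Which transcripts the TPM of ALDH1A2, RARB and RARA rest on was not tested. ALDH1A2 overlaps LIPC and AQP9 on the opposite strand, and these stood at no more than 0.111 TPM in any library.

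**Figure D4:**
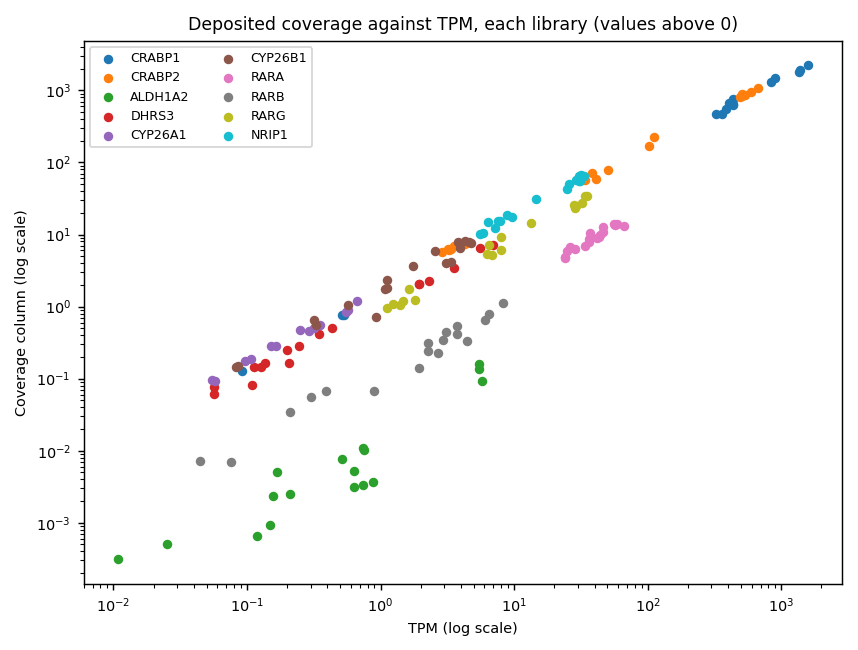
Deposited coverage (vertical axis, log scale) against TPM (horizontal axis, log scale) for the 10 genes, each point a library with values above 0. ALDH1A2, RARB and RARA lie under the line that most other genes share, ALDH1A2 farthest.

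DHRS3 (ENSG00000162496, chromosome 1, 12627939 to 12677737, minus strand), which limits retinoic acid by reducing its precursor, stood at 1.93, 2.29 and 1.93 TPM in the SKNAS controls and at 6.96, 3.55 and 5.51 TPM in the Hmx1 libraries. The arms did not overlap, and the ratio of the means was 2.60. The difference was 1.02 (without a minimum, limma adjusted p = 0.000717). With the SKNAS libraries fitted alone it was just outside the threshold (limma adjusted p = 0.0503). LAN-1 held 0.109 to 0.198 TPM in the controls and 0.246 to 0.431 TPM in the Hmx1 libraries, which did not overlap but did not pass (log2 difference 0.22, SE 0.17, limma adjusted p = 0.948). KELLY held at most 0.208 TPM. The SKNAS difference exceeded that of KELLY by 1.10 (without a minimum, limma adjusted p = 0.0107), a call that was lost with a pseudocount of 0.1 (limma adjusted p up to 0.140). The excess over LAN-1 of 0.80 did not pass (without a minimum, limma adjusted p = 0.0730).

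The breakdown enzymes showed no difference between arms that passed. CYP26B1 (ENSG00000003137, chromosome 2, 72356367 to 72375167, minus strand) stood at 0.0828, 0.329 and 0.0852 TPM in the SKNAS controls and at 0.569, 0.927 and 0.320 TPM in the Hmx1 libraries. These arms overlapped by a narrow margin (log2 difference 0.45, SE 0.28, limma adjusted p = 0.461). LAN-1 held 3.40, 1.74 and 1.11 TPM in the controls and 3.09, 1.12 and 1.08 TPM in the Hmx1 arm, and KELLY 3.95, 3.81 and 4.79 TPM against 4.31, 4.58 and 2.57 TPM. CYP26A1 (ENSG00000095596, chromosome 10, 94833232 to 94837647, plus strand), whose promoter window is printed above, was low everywhere. Its SKNAS levels were 0.289, 0.554 and 0.352 TPM in the controls and 0.568, 0.317 and 0.671 TPM in the Hmx1 arm, with overlap. LAN-1 ranged from 0.0551 to 0.251 TPM, and in KELLY the gene was listed at 0 in 5 of 6 libraries. In a fit without the minimum, CYP26A1 did not pass between the SKNAS arms (log2 difference 0.12, limma adjusted p = 0.577).

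RARB alone among the 3 receptors passed in SKNAS. RARB (ENSG00000077092, chromosome 3, 25215823 to 25639423, plus strand), whose promoter window carries the other DR5 printed above, stood at 3.76, 3.75 and 3.11 TPM in the SKNAS controls and at 8.28, 6.08 and 6.53 TPM in the Hmx1 libraries. The arms did not overlap and the ratio of the means was 1.97 (log2 difference 0.80, SE 0.23, limma adjusted p = 0.0392). This call was at the edge of the threshold: it was lost when any 1 of the 6 SKNAS libraries was left out (limma adjusted p from 0.0610 to 0.168), with a pseudocount of 0.1 (0.414) and without the minimum (0.0671). LAN-1 held 2.25, 2.25 and 2.70 TPM against 4.47, 2.95 and 1.94 TPM, where the Hmx1 libraries lay on both sides of the controls. KELLY held under 1 TPM throughout. The SKNAS difference for RARB minus that of LAN-1 (0.57, SE 0.33, limma adjusted p = 0.463) or of KELLY (0.91, SE 0.33, limma adjusted p = 0.151) did not pass.

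RARA (ENSG00000131759, chromosome 17, 38465444 to 38513094, plus strand), the broadly expressed receptor, stood at 36.5, 23.9 and 41.4 TPM in the SKNAS controls and at 25.0, 24.2 and 26.3 TPM in the Hmx1 libraries, with overlap (log2 difference -0.38, SE 0.21, limma adjusted p = 0.371). In LAN-1 its controls held 66.2, 56.8 and 59.3 TPM and the Hmx1 libraries 36.5, 28.4 and 44.0 TPM. These LAN-1 arms did not overlap, and RARA had the largest difference of the 9 genes in that line, but it did not pass (-0.75, SE 0.21, limma adjusted p = 0.191). It did not pass under any of its alternatives either, including without Hmx1 replicate 1 (limma adjusted p from 0.0678 to 0.676). KELLY held 33.8, 46.4 and 43.5 TPM against 55.8, 46.1 and 37.2 TPM. Reads of RARA and of RARA-AS1 on the opposite strand (0.138 to 2.96 TPM) may not have been told apart, since no label or header states whether counting used strand.

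RARG (ENSG00000172819, chromosome 12, 53604354 to 53626764, minus strand), a receptor known from skin and skeletal development, stood at 32.1, 28.9 and 33.9 TPM in the SKNAS controls and at 28.3, 28.1 and 35.2 TPM in the Hmx1 arm. The arms overlapped (-0.05, SE 0.21, limma adjusted p = 0.962). LAN-1 held 1.63, 1.48 and 1.82 TPM against 1.41, 1.23 and 1.12 TPM, without overlap and without passing (-0.23, SE 0.21, limma adjusted p = 0.998). In KELLY control replicate 2 (13.35 TPM) lay above the other 5 libraries (6.25 to 8.02 TPM).

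Receptor makeup set the lines apart more than the arms. In SKNAS controls RARA made 48.5% and RARG 46.2% of the summed RAR TPM, whereas RARA made 93.7% in LAN-1 and 82.2% in KELLY controls. By deposited coverage, RARA (mean 7.16) lay under RARG (mean 28.8) in the SKNAS controls. In the KELLY controls these means were near each other (9.57 and 8.36), and RARA led in the LAN-1 controls (13.5 and 1.39). The share of RARB in the summed TPM was 3.97% to 6.63% in the SKNAS controls and 9.60% to 13.4% in the Hmx1 libraries, without overlap. In LAN-1 it was 3.21% to 4.23% in the controls and 4.11% to 10.6% in the Hmx1 arm, with overlap.

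NRIP1 (ENSG00000180530, chromosome 21, 16333556 to 16437321, minus strand), a corepressor known to bind ligand-occupied nuclear receptors and to be induced by retinoic acid, stood at 30.5, 24.7 and 30.9 TPM in the SKNAS controls and at 7.24, 5.84 and 7.62 TPM in the Hmx1 libraries. The arms were far apart, with a difference of -1.91 (SE 0.24, limma adjusted p = 2.22e-05), the 76th largest fall of the 18650 genes. It passed under all 17 alternatives that gave a value. LAN-1 controls held 31.3, 30.5 and 31.6 TPM, near the SKNAS controls, and the LAN-1 Hmx1 libraries 33.5, 25.6 and 29.1 TPM (-0.09, SE 0.24, limma adjusted p = 1). KELLY held 5.58, 14.6 and 9.63 TPM against 8.84, 7.88 and 6.41 TPM, near the level of the SKNAS Hmx1 arm. The SKNAS difference minus that of LAN-1 was -1.82 (SE 0.33, limma adjusted p = 0.00228), and minus that of KELLY it was -1.66 (SE 0.33, limma adjusted p = 0.00528).

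Across the 9 genes tested, the TPM of the SKNAS arms did not overlap in 6 (CRABP1, CRABP2 and NRIP1 lower, ALDH1A2, DHRS3 and RARB higher), beside 30.9% of all genes tested. ALDH1A2 is counted among these 6, but it reached 1 TPM in the 3 SKNAS Hmx1 libraries only, so its arms had to lie apart. In LAN-1 the arms did not overlap in 3 (DHRS3 higher, RARA and RARG lower), beside 15.8% of all genes. In KELLY they overlapped in all 9, beside 6.67% of all genes that did not. The median difference of the 9 genes was -0.05 in SKNAS, 0.02 in LAN-1 and -0.08 in KELLY, beside 0, -0.05 and 0.02 over all genes. Of the differences between lines in the Hmx1 effect, 3 of 9 passed for SKNAS against LAN-1 (4.99% of all genes), 4 for SKNAS against KELLY (4.85%) and 0 for LAN-1 against KELLY (0.209%). These comparisons share the SKNAS libraries and are not independent of each other. The 3 and the 4 both include ALDH1A2, which entered the test only through the SKNAS Hmx1 libraries. The 4 also include DHRS3, which entered through the SKNAS libraries only.

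Markers of other cells and of cell state also differed between the SKNAS arms. Of 35 markers tested, 3 were higher and 10 lower in the Hmx1 arm (37.1%, beside 8.76% of all genes). Among endothelial genes TEK was higher (1.03, limma adjusted p = 1.05e-05) and ENG lower (-1.19, limma adjusted p = 0.000277). Of the muscle genes TNNI2 was lower (-1.16, limma adjusted p = 0.0142). Of the skin genes KRT17 was higher, at 0.394 and 3.20 TPM (1.60, limma adjusted p = 0.00509). KRT10 had a lower mean in the Hmx1 arm, at 22.2 and 14.8 TPM, and did not pass (limma adjusted p = 0.0765). The summed TPM of 5 skin genes was 18.9 to 26.9 in the controls and 17.4 to 19.0 in the Hmx1 libraries. The others tested in these lists did not pass. The summed TPM of 8 fibroblast genes was 1135 to 1336 in the controls and 803 to 896 in the Hmx1 libraries, with LUM, PDGFRA and DPT lower and the other 5 not passing. Of those 5, COL1A1 and COL3A1 had lower means in the Hmx1 arm, and DCN (69.3 and 101 TPM, limma adjusted p = 0.0629), PDGFRB (26.9 and 39.9 TPM) and COL1A2 (10.8 and 12.4 TPM) had higher ones. That sum was 15.4 to 50.5 TPM in LAN-1 and 50.1 to 169 TPM in KELLY over both arms. The summed TPM of 8 mesenchymal neuroblastoma genes was 738 to 801 against 496 to 549, with SNAI2, TWIST1 and NOTCH2 lower. VIM held most of that sum, at means of 627 and 427 TPM, and did not pass (limma adjusted p = 0.0535). PRRX1, FN1 and YAP1 did not pass either, and FOSL1 was not tested. The summed TPM of 7 noradrenergic genes was 874 to 1013 against 769.7 to 813, with TH lower and no other passing. Of 6 leukocyte genes 3 were tested: PTPRC was higher, at 91.9 and 231 TPM, CD14 was lower, at 1.34 and 0.523 TPM (-0.62, limma adjusted p = 0.0277), and CD68 did not pass. The 5 other than PTPRC lay under 1.65 TPM in every SKNAS library. In the fit without a minimum CD163 was lower (-0.45, limma adjusted p = 4.01e-05) and CSF1R higher (0.29, limma adjusted p = 0.0287), while AIF1, listed at 0 in the controls, did not pass. The part of these cells in the differences of CRABP1, NRIP1, ALDH1A2, DHRS3 and RARB was not tested, and no label or header states whether mouse reads were removed.

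Between control tumours of different lines these genes differed more widely, as did genes in general. Of all genes tested, 52.0%, 65.7% and 51.8% passed between lines, beside 8.76%, 0.450% and 0.0912% between arms. In 7 of the 9, all but ALDH1A2 and NRIP1, the largest difference between lines was larger than the largest between arms. The share of all genes with that property was not counted. Among control tumours, SKNAS held the highest level of both carriers and of RARG, LAN-1 the highest RARA, and KELLY the highest CYP26B1. Line and MYCN status cannot be told apart in this design. All genes together were shifted between the lines, with a median difference of 0.18 for SKNAS against LAN-1, 0.54 for SKNAS against KELLY and 0.34 for LAN-1 against KELLY. With median-ratio scaling these shifts were 0.04, 0.01 and -0.01. The calls over all genes then moved from 5870 higher and 3826 lower to 5347 and 4861 for SKNAS against LAN-1, from 9234 and 3011 to 5770 and 5671 for SKNAS against KELLY, and from 7133 and 2530 to 4574 and 4682 for LAN-1 against KELLY. No retinoic acid gene that passed in these comparisons changed direction under that scaling, and the differences below are to be read against these shifts.

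For SKNAS against LAN-1 controls, 4 of the 9 genes were higher and 2 lower, beside 52.0% of all genes that passed (31.5% higher and 20.5% lower). CRABP1 had the largest rise of the 18650 genes (10.29, SE 0.32, limma adjusted p = 4.02e-14), at a mean of 1441 against 0.177 TPM. CRABP2 had the 10th largest (7.15, SE 0.35), at 596 against 3.20 TPM. RARG was higher by 3.63 (SE 0.21), at 31.6 against 1.64 TPM, and DHRS3, which reached the minimum through SKNAS alone, by 1.41 (without a minimum, limma adjusted p = 5.50e-06). CYP26B1 (-1.34, SE 0.28, limma adjusted p = 0.000725) and RARA (-0.86, SE 0.21, limma adjusted p = 0.00242) were lower. CRABP1 and CYP26B1 each reached the minimum in 12 libraries, CRABP1 in none of LAN-1 and CYP26B1 in none of SKNAS. They thus entered the test through the lines where they were high. Both calls were kept under every alternative, including the fit without a minimum (limma adjusted p up to 9.06e-08 for CRABP1 and 0.00622 for CYP26B1). ALDH1A2, RARB and NRIP1 did not pass.

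For SKNAS against KELLY controls, 6 were higher and 1 lower, beside 65.7% of all genes (49.5% higher and 16.1% lower). The higher ones were CRABP2 (3.44, SE 0.35), RARG (1.80, SE 0.21), RARB (1.76, SE 0.23), CRABP1 (1.61, SE 0.32), NRIP1 (1.52, SE 0.24) and DHRS3 (1.44, without a minimum limma adjusted p = 3.75e-06). CYP26B1 was lower by a ratio of means of 25.2 (log2 difference -2.15, SE 0.28, limma adjusted p = 4.26e-06). CYP26B1 reached the minimum in no SKNAS library and RARB in no KELLY library. Both calls were kept under every alternative, including the fit without a minimum (limma adjusted p up to 4.53e-05 and 0.000559). Over the alternatives the differences of CRABP1 and NRIP1 went down to 0.96 and 0.88 and stayed past the threshold, and RARA (-0.30, limma adjusted p = 0.224) ranged from -0.93 to -0.07 and passed as lower under FPKM, median-ratio scaling and quantile normalization. For LAN-1 against KELLY controls, 3 were higher and 4 lower, beside 51.8% of all genes (38.2% higher and 13.6% lower). NRIP1 (1.64, SE 0.24) and RARB (1.34, SE 0.23) were higher in LAN-1, and CRABP1 (-8.68, SE 0.32), CRABP2 (-3.70, SE 0.35) and RARG (-1.82, SE 0.21) lower. RARB stayed under the minimum in KELLY and CRABP1 in LAN-1. Both calls were kept under every alternative (limma adjusted p up to 0.00590 and 3.07e-06). The remaining calls were near the threshold: RARA (0.56, SE 0.21, limma adjusted p = 0.0337) was lost under 9 of 17 alternatives and CYP26B1 (-0.81, SE 0.28, limma adjusted p = 0.0238) under 7 of 16.

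The order of the lines thus differed by gene. CRABP1, CRABP2 and RARG followed SKNAS, KELLY, LAN-1 from high to low, with each step passing. CYP26B1 ran the other way between the ends, with KELLY highest, LAN-1 next and SKNAS lowest. For NRIP1, SKNAS and LAN-1 did not differ beyond their spread and KELLY was lower. KELLY was lower for RARB too, and there SKNAS (3.11 to 3.76 TPM) lay above LAN-1 (2.25 to 2.70 TPM) without overlap, a difference that did not pass (limma adjusted p = 0.149). For DHRS3, SKNAS was highest and LAN-1 and KELLY did not differ beyond their spread, and for ALDH1A2 no pair of controls passed.

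Some genes of the wider pathway also differed between arms. Of 63 further genes in 7 lists, 43 were tested. In SKNAS 3 passed higher and 3 lower (14%, beside 8.76% of all genes). In LAN-1 1 passed lower (2.33%, beside 0.450%), and in KELLY 0 passed (beside 0.0912%). In retinol uptake, binding and storage, 1 of 4 was higher in SKNAS: RBP7, a cellular retinol-binding protein, at 0.827 against 3.08 TPM (1.14, SE 0.21, limma adjusted p = 0.00163). Among oxidoreductases, 1 of 7 was higher, RDH13, a retinol dehydrogenase of mitochondria, at 0.323 against 2.68 TPM (1.49, SE 0.18, limma adjusted p = 1.95e-05). In LAN-1, DGAT1, an acyltransferase that can also esterify retinol, was lower at 20.3 against 12.1 TPM (-0.69, SE 0.13, limma adjusted p = 0.0258).

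ALDH1A3, the other embryonic retinaldehyde dehydrogenase, was the dominant one in SKNAS. It stood at 139 TPM in the controls and 105 TPM in the Hmx1 arm and did not pass (-0.40, SE 0.33, limma adjusted p = 0.624). The share of ALDH1A2 in the summed TPM of ALDH1A1, ALDH1A2 and ALDH1A3 was 0.340% in the SKNAS controls and 5.01% in the Hmx1 libraries, against 99.6% and 94.6% for ALDH1A3. ALDH1A3 stood at 0.435 TPM in LAN-1 and 7.68 TPM in KELLY controls. CYP26C1, the third hydroxylase, was listed at 0 in every library.

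Of the RXR partners, RXRB stood at 51.1 TPM in the SKNAS controls and 41.5 TPM in the Hmx1 arm, and RXRA at 10.1 and 11.04 TPM. Neither passed. RXRG lay above 1 TPM in KELLY only, at a control mean of 1.79 TPM. FABP5, a carrier known to bring retinoic acid to the receptor PPARD, was the 1 of 5 genes in its list that passed in SKNAS, from 268 to 184 TPM (-0.55, SE 0.14, limma adjusted p = 0.0187). None of 14 receptor coregulators passed in any line. Among them were ZNF423, a zinc finger protein known to be needed for the retinoic acid response of neuroblastoma cells, at 21.2 and 17.3 TPM in SKNAS, and PRAME, a known repressor of RAR signalling, at 698 and 704 TPM.

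Of 20 genes known to be induced by retinoic acid, 11 were tested. In SKNAS 1 was higher, 2 were lower and 8 did not pass, beside 4.96% higher and 3.80% lower among all genes tested. The median difference was -0.35, beside 0 over all genes. TNFAIP2 was higher, from 23.0 to 43.9 TPM (0.93, SE 0.26, limma adjusted p = 0.0289). RARRES2, which encodes the chemoattractant chemerin, was lower, from 6.38 to 1.52 TPM (-1.53, SE 0.24, limma adjusted p = 0.000255), and so was the transglutaminase TGM2, from 10.3 to 6.02 TPM (-0.70, SE 0.18, limma adjusted p = 0.0188). The genes of this list that passed thus lay on both sides of 0.

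**Figure D5:**
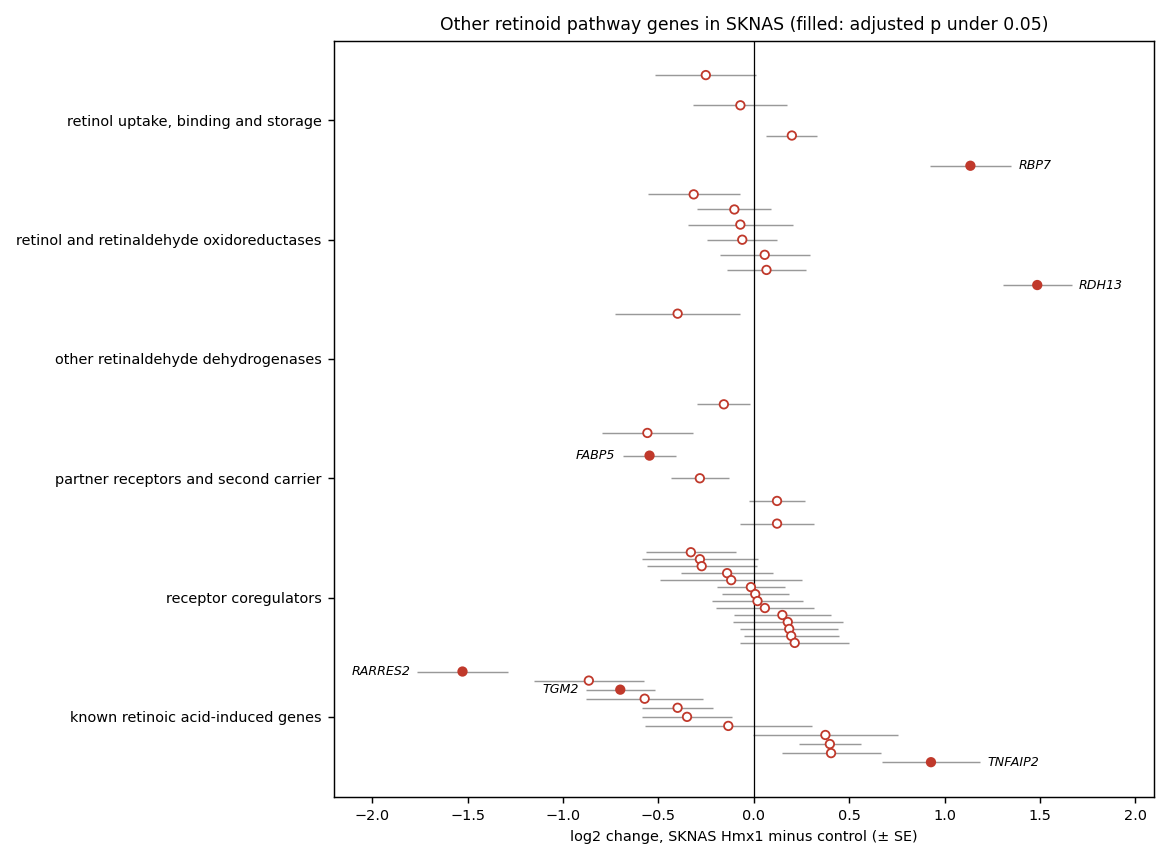
Difference between SKNAS Hmx1 and control libraries on the log2(TPM + 1) scale (horizontal axis, with SE) for the 43 tested genes of the wider retinoid pathway, grouped by list on the vertical axis. Filled points passed at an adjusted p under 0.05, and the 6 of them are named.

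Between control tumours, 18 of the same 43 genes were higher and 9 lower in SKNAS than in LAN-1 (62.8%, beside 52.0% of all genes). In SKNAS against KELLY 25 were higher and 8 lower (76.7%, beside 65.7%), and in LAN-1 against KELLY 11 were higher and 9 lower (46.5%, beside 51.8%). STRA6, the membrane receptor that takes up retinol from its blood carrier, stood at 25.4 TPM in SKNAS, 71.5 TPM in LAN-1 and 139 TPM in KELLY controls. NR2F1, an orphan receptor gene induced by retinoic acid, stood at 39.4 TPM in SKNAS, 0.265 TPM in LAN-1 and 3.91 TPM in KELLY controls.

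For each tested gene, the named genes with the most similar pattern were found by Pearson's r of log2(TPM + 1) over the 18 libraries, which share 3 lines, among 16400 tested genes with a symbol. For CRABP1 these were FBLN2 (r = 0.992), AEBP1 (0.991) and HS6ST2 (0.991), and for CRABP2 they were ATL3 (0.996), ITGA4 (0.995) and ARPIN (0.994). RARG shared ARPIN (0.994) and ITGA4 (0.994) with CRABP2. NRIP1 was most like CLCN4 (0.979), DEPDC7 (0.972) and GNB4 (0.970), each of which was also low in the SKNAS Hmx1 libraries and in KELLY. ALDH1A2 was most like ALOX5 (0.948), PART1 (0.947) and MAP10 (0.945), and DHRS3 like HTR2B (0.988), NPPA (0.988) and CLDN4 (0.987). RARB was most like PHLPP1 (0.974), ENPP4 (0.973) and APPL2 (0.971). CYP26B1 was most like CYP4F33P (0.956), SHANK1 (0.956) and KLHL29 (0.947), and RARA, with the lowest likeness of the 9, like FIGNL2 (0.894), HSPA1B (0.888) and ARID3B (0.881). Each r is a description and was not tested, since the points share lines.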

How the data were processed

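RNA of 18 xenograft tumour libraries was extracted with a lipid tissue kit and made into stranded mRNA libraries, per the labels' protocols. Per the submitters' processing notes, the tools were bcl2fastq, FastQC and STAR, and 2 builds, GRCh37 and GRCh38.p12, were listed. Not given in the sources used here are the tool behind the gene tables, its annotation and the handling of mouse reads. The deposited TPM values have the same total in each library, so depth is unknown. The deposited FPKM column and the deposited coverage signal served as alternatives, per the file headers. TPM lines of a repeated identifier were summed. Gene positions in the files end beyond those of the RefSeq GRCh38.p14 table (249231242 against 248937099 on chromosome 1) and were read as GRCh37. Promoter sequences are RefSeq GRCh38.p14. Of 63677 identifiers, 52181 were found in the name table and 39699 had a symbol.

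Groups were taken from the sample titles. The tests used limma 3.58.1 (R 4.3.3) on log2(TPM + 1). A gene was tested if 3 or more libraries reached 1 TPM, which left 18650 genes. The model had 1 mean per group and a mean-variance trend (12 residual and 4.95 prior degrees of freedom). The 9 comparisons were Hmx1 against control in each line, the differences between these effects, and the pairs of control arms. Benjamini-Hochberg adjustment ran over all genes tested. Changes of low genes are understated on the log2(TPM + 1) scale of all differences. The fit was tested on simulated data. Within groups, Pearson's r between libraries was 0.981 to 0.994, and none was a copy of another. The genes and lists were chosen with earlier results of these data known. Named are the 10 genes, up to 3 genes that passed per list and comparison with the largest change, 8 fixed pathway genes, and the 3 genes most like each gene tested. Some genes of the lists are not reported here. Other named genes were chosen after their values were seen. Alternatives were another pseudocount, other minimums, FPKM, other scalings, removal of mitochondrial transcripts, separate fits per line, no trend, each library left out in turn, and the coverage column.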

Additional observations from a re-analysis of the deposited data

Results flagged for a closer look

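The difference between the Hmx1 and control arms was tested for a difference between lines in 9 genes (limma, Benjamini-Hochberg adjusted over 18650 genes, 3 libraries per arm). For SKNAS against LAN-1 3 of 9 passed (beside 4.99% of all genes), for SKNAS against KELLY 4 of 9 (4.85%) and for LAN-1 against KELLY 0 (0.209%). These 7 differences come from CRABP1, NRIP1, ALDH1A2 and DHRS3, most of them counted in both comparisons, which share the SKNAS libraries. All 7 differences set SKNAS against another line. They are given on the log2(TPM + 1) scale as the effect in SKNAS minus the effect in the other line. For CRABP1 the value was -1.85 against LAN-1 (adjusted p = 0.0222) and -2.02 against KELLY (adjusted p = 0.0131), with every SKNAS Hmx1 library under every SKNAS control. For NRIP1 it was -1.82 against LAN-1 (adjusted p = 0.00228) and -1.66 against KELLY (adjusted p = 0.00528). For ALDH1A2 it was 2.16 against LAN-1 and 2.23 against KELLY. The gene entered the test only through the 3 SKNAS Hmx1 libraries, and without a minimum the limma adjusted p was 0.00257 and 0.00212. For DHRS3 it was 1.10 against KELLY, in which DHRS3 stood at 0.208 TPM or less. The gene entered through the SKNAS libraries alone, and without a minimum the limma adjusted p was 0.0107. With a pseudocount of 0.1 the calls of CRABP1, ALDH1A2 and DHRS3 were lost, 5 of the 7, with limma adjusted p up to 0.297 and 0.303 for CRABP1, 0.192 and 0.174 for ALDH1A2 and 0.140 for DHRS3. For NRIP1 the call against LAN-1 passed under all 23 alternatives, and the call against KELLY was lost with that pseudocount and only the lines compared (limma adjusted p = 0.0601). For CRABP1 the call against LAN-1 was lost under 8 of 23 alternatives, 5 of which left out a single library.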

How the results depend on the processing

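No difference of a gene that passed changed sign under any alternative run. With a pseudocount of 0.1, the genes that passed fell from 5 to 3 for SKNAS Hmx1 against control, from 3 to 1 for SKNAS minus LAN-1 and from 4 to 1 for SKNAS minus KELLY. In the main fit 8.76%, 4.99% and 4.85% of all genes passed in these comparisons. The shares of all genes with a pseudocount of 0.1 or with a library left out are not reported here. Whether the losses are particular to these genes was not tested. With that pseudocount and only the lines compared (chosen after seeing the data), the differences between lines gave 1 and 0. With coverage scaled to a common total (chosen after seeing the data), 3 passed in SKNAS and 1 for SKNAS minus LAN-1, with ALDH1A2 and RARB giving no value. Leaving out each library in turn gave 4 to 4 for SKNAS, 0 to 0 for LAN-1 and for KELLY, 6 to 6 for SKNAS against LAN-1 controls, 7 to 7 for SKNAS against KELLY, 5 to 7 for LAN-1 against KELLY, 2 to 4 for SKNAS minus LAN-1, 4 to 4 for SKNAS minus KELLY and 0 to 0 for LAN-1 minus KELLY. In SKNAS, NRIP1 passed under 17 of 17 alternatives, CRABP1 under 16 of 17, DHRS3 under 14 of 16 and RARB under 8 of 16. For SKNAS minus LAN-1, CRABP1 was lost under 8 of 23. The causes were not tested. Over all genes, 84 passed in LAN-1, beside 168 with median-ratio scaling, 162 with quantile normalization, 127 without a minimum, 45 with a minimum of 5 TPM, 27 with the line fitted alone and 44 with that and the smaller pseudocount. In KELLY 17 passed, beside 32, 24, 49, 10, 0 and 2 under the same settings. In SKNAS 1634 passed, and 1028 with a minimum of 5 TPM. No paired analysis was possible because the labels hold no replicate numbers that tie libraries of different groups to each other. TPM keeps no depth, so how many reads limit the low genes (ALDH1A2, DHRS3, CYP26A1 and CYP26B1) cannot be given.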

Other observations

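Of the wider pathway, 20 genes lay under the minimum of 1 TPM, and 13 of them had a value in a fit without a minimum. In SKNAS 4 of the 13 were higher in the Hmx1 arm and 9 did not pass, beside 6.74% of the 34941 genes in that fit that passed. Of the 9, 7 had a difference above 0 and 2, RDH16 (-0.22) and CD38 (-0.23), below 0. In LAN-1 and KELLY none of the 13 passed, beside 0.363% and 0.14% of all genes. The genes here are named after their values were seen. In SKNAS, LRAT, which stores retinol as esters, stood at a mean of 0.0451 TPM in the controls and 0.517 TPM in the Hmx1 libraries (log2 difference 0.53, SE 0.06, limma adjusted p = 4.51e-05). ALDH1A1, the remaining retinaldehyde dehydrogenase of its family, stood at 0.0219 and 0.432 TPM (0.48, SE 0.04, limma adjusted p = 2.04e-06). It was listed at 0 in all 12 libraries of LAN-1 and KELLY. RBP4, the blood carrier of retinol, was listed at 0 in the SKNAS controls and stood at 0.0998 to 0.195 TPM in the Hmx1 libraries (limma adjusted p = 0.000154). Among 4 homeobox genes of the HOXA and HOXB clusters read in this way, HOXB2 passed (0.25, SE 0.07, limma adjusted p = 0.0403), at 0.0340 and 0.234 TPM. All of these levels are under 1 TPM, where a small absolute difference gives a small standard error. CYP26A1 in the same fit was higher in SKNAS than in LAN-1 controls (0.26, limma adjusted p = 0.0306) and KELLY controls (0.45, limma adjusted p = 0.000544).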
